A study of Homo sapiens with 6 samples.

Results

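The mitochondrial ribosomal protein genes were taken as the protein-coding rows of the deposited count table whose symbol is MRPL or MRPS followed by a number. The rule found 78 genes of 58884 in the table and of 19997 protein-coding rows, 49 with an MRPL symbol (large subunit) and 29 with an MRPS symbol (small subunit). They were compared between HL-60 cells carrying a short hairpin RNA (shRNA) against EZH2 (3 libraries, numbered 1, 3 and 4 in their titles) and HL-60 cells carrying a scrambled hairpin (3 control libraries, numbered 3, 4 and 5). HL-60 is an established RAS-mutated acute myeloid leukemia line of promyelocytic character. EZH2 is the methyltransferase of Polycomb repressive complex PRC2, which marks histone H3 at lysine 27. Both groups shared lentiviral transduction, puromycin selection that was stopped before the experiment, and a last culture of 24 hours at 0.05% serum. Polyadenylated RNA was sequenced as single reads of 50 bases. The series' text calls the lines knock-outs, but the labels of the samples say stable knockdown. The sources do not say whether a line was cloned or whether libraries of a group came from separate cultures, so a p-value here reflects the scatter of these 6 libraries, part or all of which could be technical.

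Mitochondria carry their own ribosome, the mitoribosome, which translates the few proteins encoded by mitochondrial DNA, all of them subunits of the oxidative phosphorylation complexes. Its RNA components come from mitochondrial DNA, but every protein of it is encoded in the nucleus, made in the cytosol and imported. The small subunit holds the decoding centre that reads the messenger RNA. The large subunit holds the peptidyl transferase centre and the exit tunnel. Some of its proteins descend from bacterial ribosomal proteins, and others are found only in mitochondria. The genes lie scattered over the nuclear chromosomes, so that each one shares its neighbourhood with unrelated genes.

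Many of these genes share short promoter elements and several start next to a neighbour on the other strand, and the stretches below show both features for genes named in the results. Promoters, 250 bases before to 50 bases after the start, were taken from RefSeq (GRCh38.p14) for the 69 members found in its table. An ETS element was searched as CCGGAAG, a YY1 element as AAGATGGC and an NRF1 element as GCGC, any 2 bases and GCGC, each on both strands. Capitals mark the element. The first 5 windows come from genes that were higher with the EZH2 shRNA, the last 5 from genes that were lower.
MRPL27, chr17:50373220-50373246, minus strand, ETS: cacgcagggcCCGGAAGtagatctcct
MRPL52, chr14:22829779-22829806, plus strand, YY1: acgatgacccAAGATGGCggagccgtga
MRPS31, chr13:40771206-40771232, minus strand, ETS: aggcgccaggCCGGAAGcggaagagag
MRPS12, chr19:38930722-38930749, plus strand, YY1: catggacgcaGCCATCTTggaccgggaa
MRPL58, chr17:75012467-75012493, plus strand, ETS: tcggggcactCTTCCGGtagcagctcg
MRPL33, chr2:27771701-27771727, plus strand, ETS: gggccgtgccCCGGAAGcagttgttgt
MRPL30, chr2:99181029-99181055, plus strand, ETS: gtctgctgcgCTTCCGGgaagtggtca
MRPL17, chr11:6683403-6683430, minus strand, NRF1: ggctctgatGCGCATGCGCaaacacgtt
MRPS27, chr5:72320207-72320234, minus strand, YY1: ggtacgctccAAGATGGCtgcctccata
MRPS10, chr6:42217835-42217862, minus strand, YY1: cgggaccggcAAGATGGCggcgcggaca

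The ETS element was found in 29 of the 69 promoters (42.0%), against 20.2% of promoters of tested protein-coding genes and 10.3% of all promoters in the table. The YY1 element was found in 20 (29.0%), against 5.70% and 2.89%. The NRF1 element was found in 9, a smaller share than the 16.4% among tested protein-coding genes and a larger one than the 8.32% over all promoters. At least 1 of the 3 elements was present in 19 of 23 promoters of genes higher with the EZH2 shRNA, in 8 of 12 promoters of lower genes and in 18 of 33 promoters of genes with no call. Both directions of change thus held genes with the same short elements, as the windows of MRPL27 and MRPL33 show for ETS and those of MRPS12 and MRPS10 for YY1. A match is a string of letters and not a measured binding site.

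EZH2 itself checked the labels. It stood at 148, 151 and 150 CPM (the count over a library's effective size, set by TMM) in control libraries 3, 4 and 5, and at 79.5, 83.2 and 77.3 CPM in EZH2 libraries 1, 3 and 4. Its level was 53.5% of control (log2 fold change -0.90, SE 0.04, edgeR adjusted p = 3.22e-11). Total counts ran from 39717343 to 85074624 per library. Of 8 promyelocytic markers, 7 were above 1 CPM in all 6 libraries and their summed level was 9959 to 10768 CPM in controls and 10049 to 10471 CPM with the EZH2 shRNA. Erythroid and lymphoid markers summed to at most 0.131 CPM, with ALAS2, HBB and MS4A1 at 0. A set of 4 epithelial and fibroblast markers, with EPCAM and COL1A2 at 0, summed to 0.848 to 1.57 CPM in controls and to 2.46 to 3.29 CPM with the EZH2 shRNA, and their part in the results was not tested.

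The mitochondrial ribosomal protein genes moved in both directions and by small amounts. Of 77 genes that passed the expression filter, 25 rose, 14 fell and 38 did not pass the test (edgeR's quasi-likelihood test, Benjamini-Hochberg adjusted p under 0.05 over all 16859 genes tested). The called share of 50.6% stood beside 46.7% of all genes tested, 23.8% higher and 22.9% lower. Among tested protein-coding genes, to which all members belong, 56.9% were called, 28.3% higher and 28.7% lower. The median log2 fold change, EZH2 shRNA over control, was 0.08 over the members and 0.01 over all genes tested. Fold changes of called members ran from -0.67 for MRPL33 to 0.43 for MRPL27, and 0 of the 77 reached a 2-fold change in either direction. The 3 EZH2 libraries lay above the 3 controls in 29 members and below them in 13, that is without overlap in 42 of 77 genes, where 54.9% of all genes tested had no overlap (27.9% higher and 27.0% lower). In bulk RNA, fewer cells that express a gene and less of its RNA per cell cannot be told apart.

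**Figure D1:**
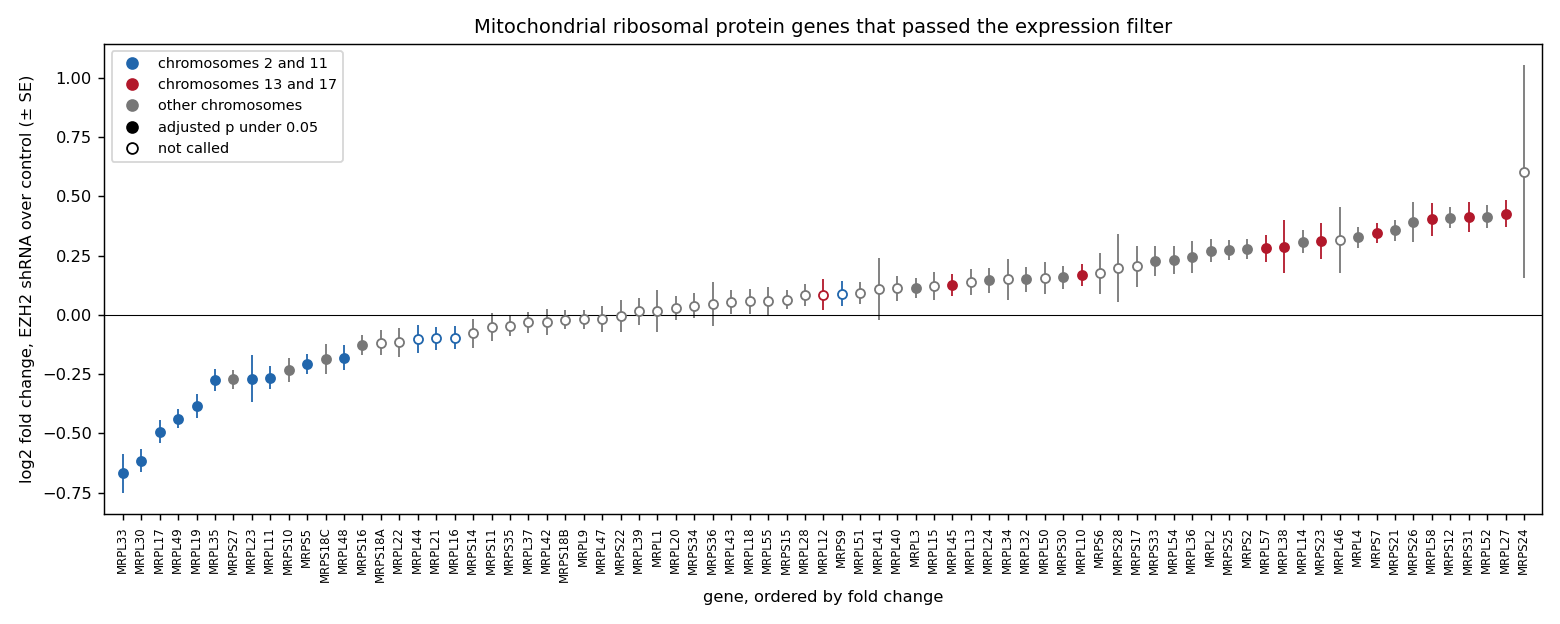
Log2 fold change (EZH2 shRNA over control) of the 77 tested genes, ordered by value, with bars of ± 1 SE; filled points passed the test and colours mark chromosomes 2 and 11, chromosomes 13 and 17, and all others. The lower end is held mostly by genes of chromosomes 2 and 11 and the genes of chromosomes 13 and 17 are all above 0.

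The direction of change went with the chromosome. On chromosomes 2 and 11, 10 of 14 measured members fell and 0 rose, with a median log2 fold change of -0.27. Over all tested genes of these chromosomes, 49.1% were lower and 9.86% higher. Such shares include non-coding genes, and over all chromosomes protein-coding genes were called more often (56.9% against 46.7% of all genes tested). On chromosomes 13 and 17, 9 of 10 members rose and 0 fell, with a median of 0.30, where 41.5% of all tested genes were higher and 8.95% lower. The 53 members on the remaining chromosomes gave 16 higher, 4 lower and 33 without a call, with a median of 0.11, beside 24.1% higher and 20.4% lower among all tested genes there. Neither 0 changed at an unadjusted p under 0.05 in edgeR, nor with DESeq2 or limma, where the counts were also 0. Among chromosomes with members, these 4 had the medians of other expressed genes furthest from 0. The medians were -0.30 on chromosome 2, -0.27 on 11, 0.20 on 13 and 0.15 on 17. The grouping follows these values from the same libraries, so the 0 counts are a description and not a test of it. Chromosome 17 gave 7 higher of 8 (39.9% higher and 9.39% lower among its tested genes) and chromosome 13 gave 2 of 2 (46.3% and 7.67%). Chromosome 19 had 3 higher of 4 (30.6% and 17.2%), and chromosome 1 had 2 higher of 8 (25.6% and 19.1%), both with 0 lower.

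**Figure D2:**
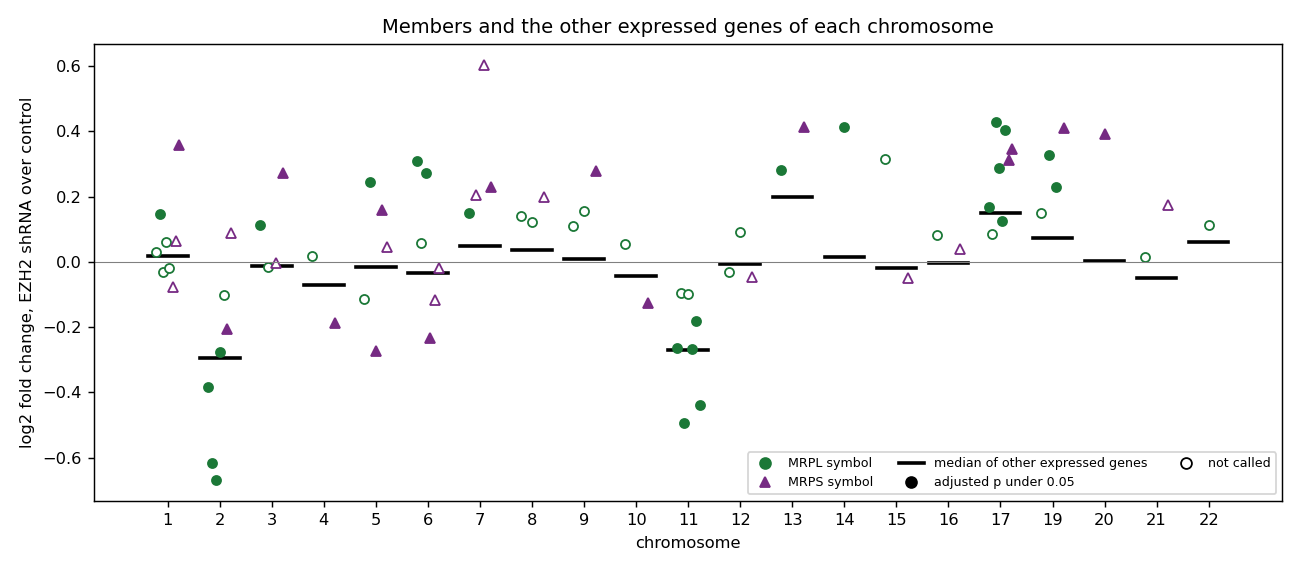
Log2 fold change of each member by chromosome, with circles for MRPL and triangles for MRPS genes; the bar is the median of the other expressed genes of that chromosome. Members of chromosomes 2 and 11 lie around bars at -0.30 and -0.27, and those of chromosomes 13 and 17 around or above bars at 0.20 and 0.15.

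The largest falls were in large-subunit genes of chromosomes 2 and 11. MRPL33, a small protein of bacterial descent (chromosome 2, 27771717 to 27988087 on GRCh38), was measured at 43.6, 46.2 and 45.3 CPM in control libraries 3, 4 and 5 and at 31.8, 24.2 and 29.1 CPM in EZH2 libraries 1, 3 and 4. The groups did not overlap, and the EZH2 libraries were 0.629 of control on average (log2 fold change -0.67, SE 0.08, edgeR adjusted p = 2.97e-05). MRPL30 (chromosome 2, 99181152 to 99199561), also with a bacterial counterpart, was at 52.1, 48.9 and 49.4 CPM in controls and at 34.0, 32.1 and 32.1 CPM with the EZH2 shRNA. Every EZH2 library was below every control here too, at 0.653 of control (-0.62, SE 0.05, adjusted p = 3.35e-08). Of the coding bases of MRPL30, 95.3% are shared with genes on the same strand in GENCODE v44, so its reads may be split between annotated genes. MRPL19, a conserved protein of the large subunit, was at 61.4, 60.8 and 55.5 CPM in controls and at 47.0, 45.5 and 43.7 CPM with the EZH2 shRNA, again without overlap (-0.38, SE 0.05, adjusted p = 8.21e-06). MRPL35, the fourth large-subunit gene that fell on this chromosome, went from 61.1 to 64.2 CPM in controls to 50.3 to 54.8 CPM (-0.28, adjusted p = 0.000112).

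On chromosome 11, 5 of 7 members fell, beside 48.5% of the tested genes there, and on chromosome 2 the count was 5 of 7 beside 49.5%. MRPL17 (chromosome 11, 6680782 to 6683401), a conserved protein, was at 59.8, 58.1 and 61.2 CPM in controls and at 44.7, 40.5 and 42.0 CPM with the EZH2 shRNA, which left a wide gap between the groups (-0.49, SE 0.05, edgeR adjusted p = 3.46e-07). MRPL49, found only in mitochondrial ribosomes, was at 96.0, 93.2 and 92.8 CPM in controls and at 69.0, 69.8 and 69.4 CPM in EZH2 libraries. Its EZH2 libraries lay within 1 CPM of each other and below all controls (-0.44, SE 0.04, adjusted p = 1.22e-07). MRPL11, part of the site where translation factors bind the large subunit, was at 87.8, 95.6 and 87.6 CPM in controls and at 79.4, 74.4 and 72.0 CPM with the EZH2 shRNA, without overlap (-0.26, adjusted p = 0.000239). MRPL48, a protein of the central protuberance, fell by 0.18 on the log2 scale (adjusted p = 0.00891). MRPL23, which lies near the exit of the tunnel, had overlapping groups, 20.8 to 28.5 CPM in controls and 20.4 to 22.2 CPM with the EZH2 shRNA. Its call (-0.27, SE 0.10, adjusted p = 0.0486) ended on leaving out any 1 library except control library 5, with adjusted p between 0.0726 and 0.163 in those 5 fits. MRPL16 (-0.10, adjusted p = 0.126) and MRPL21 (-0.10, adjusted p = 0.113) of chromosome 11 and MRPL44 (-0.10, adjusted p = 0.162) of chromosome 2 did not pass. All 3 passed as lower without EZH2 library 1, at -0.17, -0.14 and -0.18 with adjusted p of 0.00172, 0.0169 and 0.00393.

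Small-subunit genes are rare on these chromosomes, with 2 against 12 measured large-subunit genes. MRPS5, which lines the entry path of the messenger RNA, was at 72.6, 74.9 and 71.3 CPM in controls and at 63.0, 61.9 and 64.7 CPM with the EZH2 shRNA, without overlap (-0.21, SE 0.04, edgeR adjusted p = 0.00065). Of its coding bases 95.5% are shared with another gene on its strand in GENCODE v44. That gene does not overlap MRPS5 in the deposited table, where ZNF514 is the overlapping gene on its strand. MRPS9, on the same chromosome 2, was at 40.1, 38.2 and 41.3 CPM in controls and at 45.1, 40.9 and 41.1 CPM in EZH2 libraries. These groups overlapped and the gene did not pass (0.09, SE 0.05, adjusted p = 0.191). It was the 1 member with a positive value among the 14. MRPL53 (chromosome 2) did not pass the filter, with 25 counts over the controls and 20 over the EZH2 libraries, and all of its coding bases in GENCODE v44 are shared with CCDC142 on the same strand.

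Rises on chromosomes 13 and 17 involved both subunits. MRPL27 (chromosome 17, 50367857 to 50373207), which reaches toward the peptidyl transferase centre in bacterial ribosomes, was at 35.0, 34.2 and 35.1 CPM in controls and at 50.9, 43.3 and 46.1 CPM with the EZH2 shRNA. All EZH2 libraries were above all controls, at 1.34 of control (log2 fold change 0.43, SE 0.06, edgeR adjusted p = 1.11e-05). MRPL58, a peptidyl-tRNA hydrolase that frees stalled mitoribosomes and is also built into the large subunit, was at 26.1, 29.8 and 26.1 CPM in controls and at 39.3, 32.8 and 36.5 CPM with the EZH2 shRNA, without overlap (0.40, SE 0.07, adjusted p = 0.000224). MRPS31 (chromosome 13, 40729135 to 40771173), a small-subunit protein without a bacterial counterpart, was at 23.4, 21.5 and 22.4 CPM in controls and at 31.8, 27.7 and 30.0 CPM with the EZH2 shRNA. Its lowest EZH2 library was above its highest control, at 1.33 of control (0.41, SE 0.06, adjusted p = 4.16e-05). MRPS7, a conserved protein of the head of the small subunit, was at 62.0, 62.0 and 63.1 CPM in controls and at 82.3, 76.6 and 78.7 CPM with the EZH2 shRNA, also without overlap (0.34, SE 0.04, adjusted p = 4.47e-06).

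MRPS23, a mitochondria-specific protein, showed the widest spread of these, at 80.9, 63.5 and 70.7 CPM in EZH2 libraries 1, 3 and 4 against 57.6, 56.9 and 58.8 CPM in controls, and its groups still did not overlap (0.31, SE 0.07, edgeR adjusted p = 0.00529). MRPL57 of chromosome 13 rose by 0.28 on the log2 scale (adjusted p = 0.000624), and MRPL10, the base of the stalk that recruits translation factors, by 0.17 (adjusted p = 0.00574). MRPL12, the stalk protein that MRPL10 carries, did not pass at 0.08 (adjusted p = 0.313), and was the 1 member of the 10 without a call. Of its coding bases 96.0% are shared with another gene on the same strand in GENCODE v44. MRPL38 (0.29, adjusted p = 0.0453) and MRPL45 (0.13, adjusted p = 0.038), which anchors the exit site to the inner membrane, passed narrowly. Each lost its call in 5 of the 6 fits that left out 1 library, all but that without control library 5 for MRPL38 and all but that without EZH2 library 3 for MRPL45. Over those fits adjusted p reached 0.20 for MRPL38 and 0.182 for MRPL45.

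On the other chromosomes more members rose than fell. MRPL52 (chromosome 14, 22829879 to 22835037), a mitochondria-specific protein, was at 44.9, 47.5 and 46.0 CPM in controls and at 63.4, 62.9 and 58.3 CPM with the EZH2 shRNA, without overlap (log2 fold change 0.41, SE 0.05, edgeR adjusted p = 2.1e-06). MRPS12, the protein of the decoding centre (chromosome 19, 38930548 to 38933162), was at 54.6, 53.2 and 49.9 CPM in controls and at 70.7, 70.3 and 68.6 CPM in EZH2 libraries. The latter lay close together and above every control (0.41, SE 0.05, adjusted p = 1.24e-06). MRPS26 was at 50.0, 57.5 and 43.9 CPM in controls, the widest control spread among these genes, and at 64.4, 65.7 and 68.5 CPM with the EZH2 shRNA, still without overlap (0.39, SE 0.09, adjusted p = 0.0048). MRPS21, a conserved small-subunit protein of chromosome 1, was at 74.1, 79.5 and 74.6 CPM in controls and at 97.3, 92.9 and 101.7 CPM with the EZH2 shRNA, with no overlap (0.36, SE 0.05, adjusted p = 6.63e-06). MRPL4, which lines the exit tunnel, was at 116, 121 and 111 CPM in controls and at 140, 151 and 145 CPM in EZH2 libraries, so that the groups stood apart (0.33, SE 0.04, adjusted p = 1.18e-05).

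Among the remaining rises, MRPL14 gave 0.31, MRPL2, a core protein next to the peptidyl transferase centre, 0.27, MRPS2 0.28 and MRPS25 0.27, with adjusted p of 8.04e-05, 0.000249, 6.17e-05 and 5.82e-05 (edgeR). Of the coding bases of MRPL2 60.6%, and of those of MRPS25 72.9%, are shared with another gene on the same strand in GENCODE v44. In the deposited table, however, no gene overlaps either of them on that strand. MRPL36, a conserved protein, rose by 0.25 (adjusted p = 0.00699), MRPL54 by 0.23 (adjusted p = 0.0042) and MRPS33 by 0.23 (adjusted p = 0.00661). The smallest called rises were the least stable. MRPL3 (0.11, adjusted p = 0.035) and MRPL32 (0.15, adjusted p = 0.0256) passed in none of the fits that left out 1 library except that without EZH2 library 3. MRPL24 (0.15, adjusted p = 0.0318) passed only without EZH2 library 4 or control library 3. MRPS30 (0.16, adjusted p = 0.0166) lost its call without control library 3 or 5.

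The 4 falls off these chromosomes were all in genes with an MRPS symbol. MRPS27 (chromosome 5), a pentatricopeptide repeat protein that binds RNA, was at 119, 120 and 115 CPM in controls and at 99.4, 95.5 and 98.0 CPM with the EZH2 shRNA, without overlap (-0.27, SE 0.04, edgeR adjusted p = 2.36e-05). MRPS10 (chromosome 6), a conserved protein of the head, was at 49.3, 49.8 and 46.3 CPM in controls and at 40.5, 42.9 and 40.4 CPM in EZH2 libraries, again fully below (-0.23, SE 0.05, adjusted p = 0.000873). MRPS18C (-0.19, adjusted p = 0.0261) lost its call without control library 3, control library 4 or EZH2 library 4. MRPS16 (-0.13, adjusted p = 0.0185) lost it without control library 3 or EZH2 library 4. MRPS18C is 1 of 3 genes with an MRPS18 symbol. MRPS18A, whose protein sits in the large subunit, was at -0.12 (adjusted p = 0.0884). It passed as lower without EZH2 library 1 (-0.17, adjusted p = 0.00787). MRPS18B was at -0.02 (adjusted p = 0.725). The differences among these 3 genes were not tested. MRPS36, whose protein is now known as part of a ketoglutarate dehydrogenase complex and not of the ribosome, was at 0.05 (adjusted p = 0.723).

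**Figure D3:**
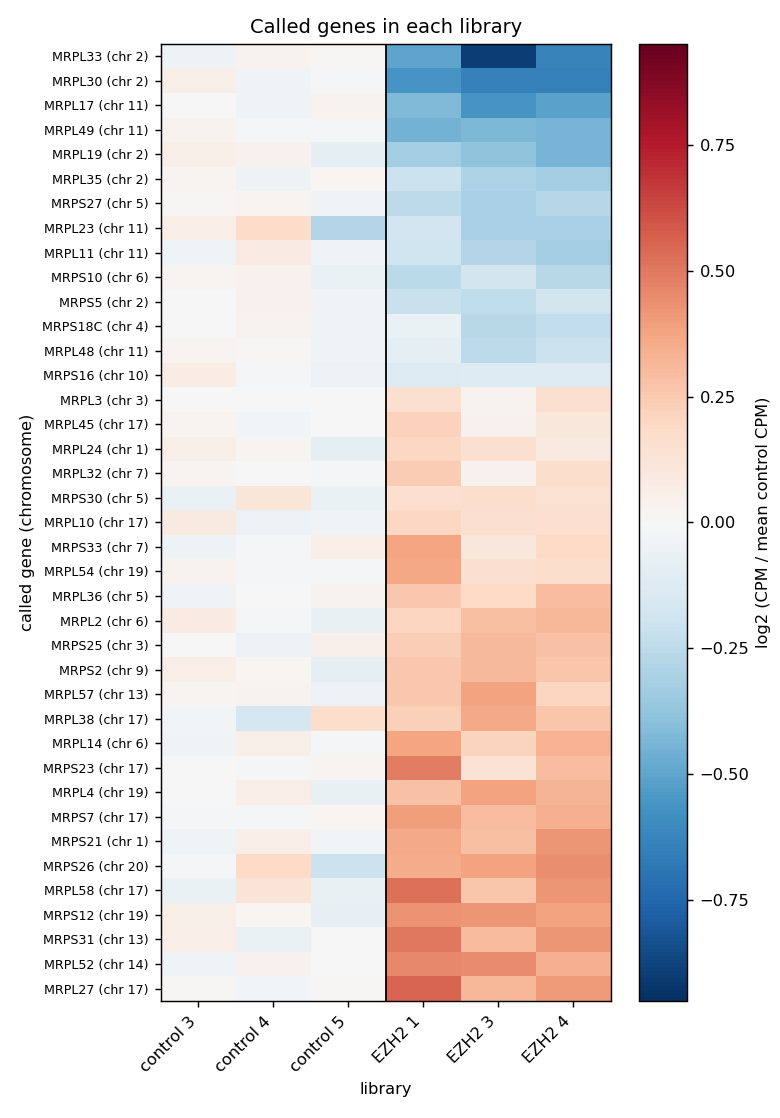
Level of the 39 called genes in each of the 6 libraries as log2 of CPM over the mean control CPM, with genes in rows, libraries in columns and chromosomes in brackets; red is above and blue below the control mean. Among the EZH2 libraries, MRPL33 is lowest in library 3 (24.2 CPM) and MRPS23 highest in library 1 (80.9 CPM), and control libraries differ most in MRPL23, MRPL38 and MRPS26.

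The EZH2 libraries differed among themselves in a way that crossed gene and chromosome. Library 1 held the highest of the 3 values in 52 of 77 members, and library 3 the lowest in 47. The same shares over all genes tested are not given here, so whether this is particular to the members was not tested. The chi-square per degree of freedom between libraries 1 and 3, over genes past a minimum count in the pair, was 17.3. It was the largest of any pair within a group, where the lowest was 3.18. The value also grows with total counts, which differed between pairs and were not adjusted for. Of the 39 called members, 30 kept their call in all 6 fits that left out 1 library, and the 9 that did not are named above. In the other direction, 11 of the 38 members without a call passed in at least 1 of these fits. The share of all uncalled genes that did so is not given here.

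The change of a member tracked that of the genes around it. For each member the median log2 fold change of the 40 nearest expressed genes was taken, leaving out the members themselves. Over the 76 members with a mean of at least 1 CPM, Pearson's r between member and neighbourhood was 0.74 and Spearman's rho 0.73. Off chromosomes 2 and 11 r was 0.57 over 62 members, and off chromosomes 13 and 17 as well it was 0.50 over 52. These are descriptions across genes of the same 6 libraries, and neighbouring members share part of their windows.

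**Figure D4:**
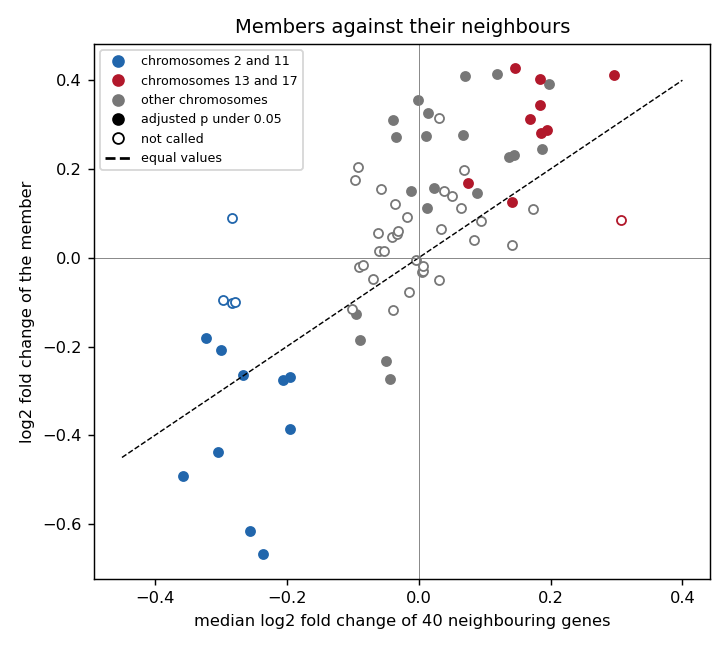
Log2 fold change of each member (vertical axis) against the median of its 40 expressed neighbours (horizontal axis), with the dashed line where both are equal. Most members of chromosomes 2 and 11 lie at the left below 0, with MRPL33 and MRPL30 below the line and MRPS9 above it.

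With the chromosome's own median taken out of each gene as an offset, 23 members passed as higher and 6 as lower, beside 23.6% and 20.7% of all genes tested. With the neighbourhood median taken out of each gene as an offset, 30 members passed the test, 22 higher and 8 lower, beside 23.8% and 20.8% of all genes tested. Of these 30, 20 had been called in the same direction before. Both offsets were fixed values taken from the main fit of the same 6 libraries. The SE and adjusted p of these fits therefore leave out the error of the median and the spread among the neighbours. MRPL33 stayed lower by 0.43 and MRPL30 by 0.36 below their neighbours on the log2 scale (edgeR adjusted p = 0.001 and 1.72e-05). MRPL19 (-0.19), MRPL17 (-0.14), MRPL49 (-0.13), MRPS27 (-0.23) and MRPS10 (-0.18) also stayed lower. MRPL12 passed as lower than its neighbourhood at -0.22 (adjusted p = 0.0109), its neighbours having a median of 0.31. Its reads may be split, as 96.0% of its coding bases are shared with another gene on its strand. MRPL35, MRPL11, MRPL23 and MRPS5 had no call left, with values between -0.07 and 0.09. MRPL48 turned to 0.14 and passed as higher (adjusted p = 0.0379).

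On the higher side, MRPS21 (0.36), MRPL14 (0.35), MRPS12 (0.34), MRPL4 (0.31), MRPL2 (0.31), MRPL52 (0.30), MRPL27 (0.28) and MRPS25 (0.26) kept a call relative to their neighbours. MRPS9 came out at 0.37 above its neighbours (edgeR adjusted p = 2.52e-05), the largest such value of any called member, though it had not passed before the offset. MRPL16, MRPL21 and MRPL44 likewise passed as higher than their neighbours, at 0.20, 0.18 and 0.18. MRPS31, MRPS23, MRPL57, MRPL10, MRPL38 and MRPL45 of chromosomes 13 and 17 had no call left, while MRPL27, MRPL58 and MRPS7 kept theirs. Calls were also lost off chromosomes 2, 11, 13 and 17. Among rises these were MRPS26, MRPL36, MRPL54, MRPS33, MRPL3 and MRPL24, with adjusted p from 0.0619 (MRPL3) to 0.518 (MRPL36). Among falls they were MRPS16 (adjusted p = 0.564) and MRPS18C (adjusted p = 0.246).

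Both subunits held genes that rose and genes that fell. Among large-subunit genes, 15 of 48 rose and 9 fell (median log2 fold change 0.08), and among small-subunit genes 10 of 29 rose and 5 fell (median 0.09), beside 23.8% higher and 22.9% lower over all genes tested. Without EZH2 library 1 the large subunit gave 11 higher and 11 lower. Its higher count was also 11 without EZH2 library 4, control library 3 or control library 5, with 8, 8 and 9 lower. Shares over all genes in these fits are not given here. The difference between the subunits was not tested. Assigning genes by where the protein sits (MRPS30 and MRPS18A to the large subunit, MRPS36 to neither) gave 16 higher and 9 lower of 50, and 9 higher and 5 lower of 26. The subunits differ in where their genes lie. Off chromosomes 2, 11, 13 and 17, 9 of 29 large-subunit genes by symbol rose and 0 fell (0 also at an unadjusted p under 0.05, with DESeq2 and with limma), and 7 of 24 small-subunit genes rose and 4 fell, beside 24.1% higher and 20.4% lower among all tested genes there. By place in the ribosome MRPS18A joins the large subunit and was lower at an unadjusted p of 0.0457. The difference between these shares was also not tested, and those chromosomes were set apart by values from the same libraries.

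Summed over all 78 genes, the level was 4322, 4362 and 4192 CPM in controls and 4600, 4294 and 4393 CPM with the EZH2 shRNA, so the groups overlapped. The small-subunit sum was 1656 ± 34.0 CPM in controls and 1755 ± 54.4 CPM with the EZH2 shRNA (SD, n = 3), with no overlap, and the large-subunit sum was 2636 ± 55.2 and 2674 ± 103 CPM, with overlap. The ratio of the large to the small sum was therefore lower in every EZH2 library, at 1.542, 1.526 and 1.504 against 1.588, 1.595 and 1.592 in controls. Without the genes of chromosomes 2 and 11 the order turned round, at 1.280, 1.274 and 1.256 with the EZH2 shRNA and 1.237, 1.248 and 1.244 in controls. Genes of chromosomes 2 and 11 summed to 830 ± 12.6 CPM in controls and 686 ± 31.2 CPM with the EZH2 shRNA. Those of chromosomes 13 and 17 went from 419 ± 4.78 to 503 ± 27.4 CPM and all others from 3043 ± 74.6 to 3240 ± 97.7 CPM.

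**Figure D5:**
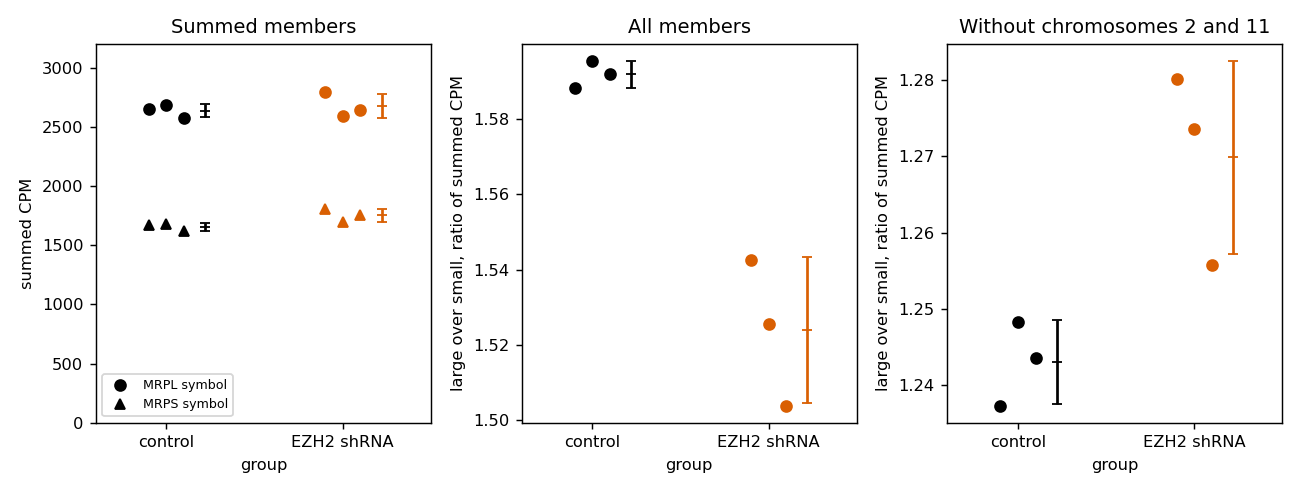
Summed CPM of large- and small-subunit genes, and the ratio of the sums for all genes and without chromosomes 2 and 11; points are libraries and bars are the mean ± SD of 3. The ratio is lower with the EZH2 shRNA over all genes (1.524 against 1.592) and higher once chromosomes 2 and 11 are left out (1.270 against 1.243); the ratio axes do not start at 0.

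By descent, 13 of 46 members with a bacterial counterpart rose and 11 fell, and 12 of 30 mitochondria-specific members rose and 3 fell, beside 23.8% higher and 22.9% lower over all genes tested. The first class has 11 measured genes on chromosomes 2 and 11, of which 8 fell, and the second has 3, of which 2 fell, where 49.1% of all tested genes were lower. On chromosomes 13 and 17, where 41.5% of all tested genes were higher, MRPL10, MRPL27 and MRPS7 of the first class rose and MRPL12 had no call. All mitochondria-specific members there rose, namely MRPL38, MRPL45, MRPL57, MRPL58, MRPS23 and MRPS31. Off chromosomes 2, 11, 13 and 17 the counts were 10 higher and 3 lower of 31 with a counterpart and 6 higher and 1 lower of 21 without, beside 24.1% and 20.4% of all tested genes. The difference between the classes was not tested.

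Several members start head to head with a gene on the other strand. The stretches between both starts are shown, on the member's strand, for the 3 shortest of the 4 pairs in which both genes were called and for the 1 pair made of 2 members, with capitals on an element where one was found.
MRPL30 and MITD1, chr2:99181059-99181151, plus strand, NRF1: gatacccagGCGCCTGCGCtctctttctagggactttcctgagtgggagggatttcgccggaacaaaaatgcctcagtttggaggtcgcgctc
MRPL36 and NDUFS6, chr5:1801367-1801399, minus strand: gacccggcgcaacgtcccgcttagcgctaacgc
MRPL52 and SLC7A7, chr14:22829821-22829878, plus strand, YY1: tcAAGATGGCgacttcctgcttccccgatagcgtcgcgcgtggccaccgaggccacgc
MRPL46 and MRPS11, chr15:88467391-88467452, minus strand: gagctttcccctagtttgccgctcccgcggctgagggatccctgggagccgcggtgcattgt

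Over 18 such pairs, whose starts lay from 148 bases of overlap to 990 bases apart, both genes had the same sign in 12, and r between the log2 fold changes of the pair was 0.49 across pairs. In 4 of the 18 pairs both genes passed the test, all 4 in the same direction. Calls were common, at 56.9% of all tested protein-coding genes (28.3% higher and 28.7% lower). Whether 4 pairs exceed what such shares give was not tested. MRPL30 and MITD1, a protein of the last step of cell division, were at -0.62 and -0.46. MRPL36 and NDUFS6, a subunit of respiratory complex I, were at 0.25 and 0.37. MRPL52 and SLC7A7, an amino acid transporter, were at 0.41 and 0.92, and MRPL54 and APBA3 at 0.23 and 0.21. Other partners did not follow: MRPL49 fell by 0.44 while FAU, which encodes a cytosolic ribosomal protein, was at -0.06 (edgeR adjusted p = 0.315), and MRPL27 rose by 0.43 while EME1 was at -0.03 (adjusted p = 0.65). MTBP was called lower at -0.18 (adjusted p = 0.0244) while its partner MRPL13 was at 0.14 (adjusted p = 0.0514). MRPL46 (0.32, adjusted p = 0.074) and MRPS11 (-0.05, adjusted p = 0.514) share a start region, and neither passed.

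Levels can be set side by side between genes only per length, and the deposited FPKM values were used for that. In controls the median over the 77 tested members was 18.7 FPKM, and 69 of them lay between 5 and 100 FPKM. The median was 23.6 FPKM for large-subunit and 13.5 FPKM for small-subunit genes. MRPS34 was highest (96.1 ± 7.65 FPKM in controls, 98.3 ± 4.38 with the EZH2 shRNA, SD, n = 3), followed by MRPL51 (79.9 ± 2.05 and 84.7 ± 5.44) and MRPS18B (70.6 ± 1.81 and 69.2 ± 2.56). In both groups the means of these 3 lay further apart than their SDs reach, but MRPS18B and the fourth, MRPL37 (69.2 ± 2.94 and 67.3 ± 2.85), did not differ beyond their SDs. None of the 3 passed the test between groups.

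The lowest tested members were MRPS24 (0.0685 ± 0.0349 FPKM in controls, 25 counts in all), MRPL46 (0.469 ± 0.0542) and MRPL38 (1.28 ± 0.146). Each shares coding sequence with another gene on its strand in GENCODE v44: 92.2% of the coding bases of MRPS24 lie in the read-through gene URGCP-MRPS24, and the share is 64.0% for MRPL46 and 94.1% for MRPL38. MRPS24 had the highest fitted value of any member, 0.60, with an SE of 0.45 and no call (edgeR adjusted p = 0.295). The 7 members with at least 90% of their coding bases shared had a median of 4.25 FPKM, against 22.3 FPKM for the other 71. The levels of such genes are uncertain, since the counting could leave out or split reads shared with genes that its annotation held. MRPS5 is 1 of the 7, and the gene of GENCODE v44 that shares its coding bases does not overlap it in the deposited table. Named pseudogenes of the family, 75 rows, held 0.742 to 0.878% as many counts as the members themselves.

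Other genes of mitochondrial translation also gave calls in both directions, to be read beside the 23.8% higher and 22.9% lower of all genes tested. Of 5 mitoribosomal proteins without an MRP symbol, 4 rose and 1 fell (edgeR): GADD45GIP1 by 0.26, AURKAIP1 by 0.23, CHCHD1 by 0.21 and DAP3 by 0.12 were higher, and PTCD3 of chromosome 2 was lower at -0.15. Of 28 assembly factors of the mitoribosome 8 rose and 6 fell. Among them MTERF3 (0.60), the rRNA methyltransferase MRM1 (0.48), the rRNA chaperone ERAL1 (0.30) and the GTPase MTG1 (0.29) had the smallest p-values. Of 19 translation factors 7 rose and 3 fell. LRPPRC (-0.37), which stabilises mitochondrial messenger RNAs, and the initiation factor MTIF2 (-0.23), both on chromosome 2, were lower. The release factor MTRF1 (0.48) and the initiation factor MTIF3 (0.38), both on chromosome 13, were higher.

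The aminoacyl-tRNA synthetases of mitochondria gave 7 higher and 3 lower of 19, among them GARS (-0.39), WARS2 (-0.30) and CARS2 (0.28, chromosome 13). Factors of mitochondrial transcription and biogenesis gave 6 higher and 1 lower of 17, with the mitochondrial RNA polymerase POLRMT at 0.46, TFB2M at 0.37, POLG2 at 0.40 and the helicase TWNK at 0.22. Of 13 proteins encoded by mitochondrial DNA, the products of the mitoribosome, 7 were higher and 0 lower in polyadenylated RNA (0 lower also at an unadjusted p under 0.05, with DESeq2 and with limma), with a median of 0.29. For cytosolic ribosomal proteins the count was 52 higher and 2 lower of 77, with a median of 0.21. On chromosomes 2 and 11 these gave 0 higher and 2 lower of 9, beside 9.86% higher and 49.1% lower among all tested genes there. On chromosomes 13 and 17 they gave 7 higher of 7, beside 41.5% higher and 8.95% lower. On the others they gave 45 higher and 0 lower of 61, beside 24.1% higher and 20.4% lower. Each of these 0 counts held at an unadjusted p under 0.05 in edgeR and with DESeq2 and limma. The mitochondrial set had 16 higher and 4 lower of 53 on those other chromosomes, and the difference between the 2 families was not tested.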

How the data were processed

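The authors deposited whole-number read counts per gene without normalization, and FPKM values. Dividing the counts by size factors and by 1 gene length returned the FPKM of 25514 of 25514 genes checked within 0.001, so both tables hold the same measurement. GRCh38, Picard 2.18.24, STAR 2.5.2b, R 3.6.1 and DESeq2 1.24.0 are named, per the submitters' processing notes, without roles. How reads were counted, on which strand and annotation, is not given in the sources used here, so overlapping genes may share reads (37 members overlap a gene on the other strand).

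Counts of all 6 libraries were fitted with edgeR 4.0.16 in R 4.3.3 (TMM factors, filterByExpr, robust quasi-likelihood test, group as the only term) over 16859 genes, with Benjamini-Hochberg adjustment and a threshold of 0.05. The SE of a log2 fold change was derived from the fold change and its F statistic. A floor of 3 counts equals 0.0353 to 0.0755 CPM per library, covering counting error only. Windows held 40 expressed genes (mean log2 CPM above 2), and their median in the main fit entered as a fixed offset, without its error. Alternatives were DESeq2 1.42.0, limma 3.58.1 on log2(FPKM + 1), other scalings and filters, chromosome and window offsets, a replicate block and leaving out each library. The code was tested on simulated counts.

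Members and lists were chosen with earlier results of these data known. Named were up to 8 higher and 8 lower genes per subunit by symbol with the largest called change, and the 3 highest and 3 lowest by FPKM. The rule also names the untested gene, the MRPS18 genes and, per related list, up to 4 genes with the smallest p. 1 gene that this rule names is not reported here. GADD45GIP1 and the other called or discussed members were named after their values were seen.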

Additional observations from a re-analysis of the deposited data

How the results depend on the processing

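Removing each chromosome's median took the members called lower from 14 to 6, large-subunit ones from 9 to 4 and small-subunit ones from 5 to 2. Removing window medians left 8, and 2 in the small subunit. Under these offsets the member median was 0.0049 and 0.0021 on chromosome 11 (main -0.26), 0.020 and -0.070 on chromosome 2 (main -0.28) and 0.15 and 0.12 on chromosome 17 (main 0.30, and 0.22 with limma). On chromosome 1 it was 0.0027 with window medians removed (main 0.04). The offsets by construction subtract what neighbours share. Signs turned, chromosome offset first, for MRPL11 (0.0049, 0.0021), MRPL16 (0.17, 0.20), MRPL21 (0.17, 0.18), MRPL44 (0.19, 0.18), MRPL45 (-0.024, -0.016), MRPL48 (0.088, 0.14) and MRPS5 (0.089, 0.093). They turned with the chromosome offset alone for MRPL23 (0.0010) and MRPL35 (0.020), and with the window offset alone for MRPL12 (-0.22).

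Leaving out 1 library gave 20 to 27 members higher and 11 to 17 lower, 11 to 16 and 8 to 11 in the large subunit, and 9 to 11 and 3 to 6 in the small. The share of all genes tested that was called in each of these fits is not given here. A shift in these counts therefore cannot be told apart from a shift in the call rate over all genes. Without EZH2 library 4 or control library 3, 3 small-subunit genes were lower. Medians ran from 0.04 to 0.10 over all members, 0.05 to 0.10 in the large and 0.03 to 0.12 in the small subunit. By chromosome they ran from 0.00069 to 0.050 on 1 (lowest without EZH2 library 1), -0.32 to -0.25 on 2, -0.31 to -0.18 on 11 (-0.18 without control library 4) and 0.25 to 0.34 on 17. The cause was not tested.

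Over 8 settings of scaling, filter, tool and block, 32 of 39 called members kept their call, with 20 to 29 members higher and 13 to 19 lower. Shares over all genes tested in these settings are likewise not given. The groups share the title numbers 3 and 4, which are not said to pair libraries, and deviations of same-numbered libraries correlated at 0.04 and 0.01. With the replicate block 21 members were higher and 19 lower (median 0.04), 11 and 13 in the large and 10 and 6 in the small subunit. Title numbers 1 and 5 each occur in 1 library, so this fit compared the groups only through libraries 3 and 4 of each. It rests on fewer libraries than the main fit. MRPL22 (chromosome 5) passed as lower in the block fit, so there large-subunit genes off chromosomes 2, 11, 13 and 17 were not without a fall. MRPL53 and MRPS24 have the fewest counts, 20 to 54 per group, and the least precise values.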
